A study of Arabidopsis thaliana with 116 samples.

Results

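The transcript levels of 5 genes were followed in root and shoot of Arabidopsis thaliana seedlings given salicylic acid (SA): AT1G14880 (PCR1), AT1G14870 (PCR2), AT2G14560 (LURP1), AT2G44240 and AT1G52130, of 27655 genes in the count table. The rows were found by their locus identifiers, and all 5 were present. The genes had been picked from the 48 h libraries as genes without reads in control plants and with high counts in SA plants, and PCR2 was added as the paralog of PCR1. Control and SA libraries of 48 h therefore chose the members, so that values at 48 h are described without a test, and tests cover 1 to 24 h. Col-0 seedlings were grown on nylon mesh on agar and were moved on day 5 to plates with 150 µM SA, with 2 µM abscisic acid (ABA), or without hormone as control. At harvest a razor separated shoot from root. SA and ABA plants were taken at 1, 2, 4, 7, 24 and 48 h, and control plants at these times and at 0 h. Each tissue gave 58 libraries, 3 in every group except the 0 h controls, which had 4.

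Depth varied widely, with a median of 30483879 counts per library and extremes of 46189 and 221250466. The shallowest one was replicate 1 of the shoot controls at 7 h, and the next shoot library held 5394870 counts. Levels below are CPM, read counts scaled to library size with the TMM factors of one fit to the libraries of both tissues, so that root and shoot values share a scale. SA or ABA libraries were compared with the controls of the same time and tissue by edgeR's quasi-likelihood test, with Benjamini-Hochberg adjustment over all genes tested in that comparison and a threshold of 0.05. The 10 shoot marker genes, which encode parts of the photosynthetic apparatus, summed to between 8.22 and 155 CPM in root libraries and to between 20022 and 101791 CPM in shoot libraries. The 10 root markers did not separate the tissues as cleanly, with 604 to 5312 CPM in root and 463 to 3642 CPM in shoot libraries.

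SA is the hormone of defence against pathogens that feed on living plant cells. It is perceived by NPR proteins, of which NPR1 acts with TGA transcription factors to activate genes and NPR3 and NPR4 act as repressors, and the genes encoding WRKY factors, NIMIN proteins and pathogenesis-related (PR) proteins are among the known targets. PCR1 and PCR2 are small cysteine-rich membrane proteins of the PLAC8 family, named for the cadmium resistance they give to yeast, and PCR2 exports zinc from plant cells. LURP1, a protein of the LURP-one-like family, was named for late and sustained up-regulation in response to an oomycete and takes part in basal defence against it. AT2G44240 encodes a protein annotated with a DUF239 (neprosin) domain and AT1G52130 a jacalin-type mannose-binding lectin, and their roles are less well known.

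PCR1 and PCR2 lie next to each other on chromosome 1, both on the minus strand, at chr1:5132506-5133860 and chr1:5128344-5129731. LURP1 (chr2:6213617-6215932) and AT2G44240 (chr2:18289824-18292374) are on the plus strand of chromosome 2, and AT1G52130 (chr1:19400510-19402789) is on the minus strand of chromosome 1, with a gene model marked as partial. No member overlaps another annotated gene. Coordinates and sequences are from RefSeq's annotation of assembly TAIR10.1. The coding sequences of PCR1 (456 bases) and PCR2 (459 bases) are 88.9% identical, 408 of 459 aligned positions, with a longest identical run of 39 bases. Their starts are shown, coding bases 1 to 297 of PCR1 and 1 to 300 of PCR2, because reads must be told apart at these differences for the counts of the pair to be read separately. Capitals mark the 34 of 300 aligned positions at which the pair differs, 3 of them a gap in PCR1.
PCR1: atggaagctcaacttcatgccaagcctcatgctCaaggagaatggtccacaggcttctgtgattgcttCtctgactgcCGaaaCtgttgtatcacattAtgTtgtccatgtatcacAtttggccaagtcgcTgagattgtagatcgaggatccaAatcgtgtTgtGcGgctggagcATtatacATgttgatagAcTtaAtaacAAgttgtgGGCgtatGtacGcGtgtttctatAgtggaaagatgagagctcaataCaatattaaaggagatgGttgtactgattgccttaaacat
PCR2: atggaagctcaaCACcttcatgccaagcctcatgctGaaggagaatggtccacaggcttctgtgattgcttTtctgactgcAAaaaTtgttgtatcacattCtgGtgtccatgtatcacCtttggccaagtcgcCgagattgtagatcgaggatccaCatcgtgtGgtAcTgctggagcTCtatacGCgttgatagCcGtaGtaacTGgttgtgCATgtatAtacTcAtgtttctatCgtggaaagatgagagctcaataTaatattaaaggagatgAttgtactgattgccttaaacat

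The pair also differs in front of the gene. The 250 bases before the annotated start were searched on both strands for TGACG, the core of the site bound by TGA factors, and for TTGAC, the core of the W-box bound by WRKY factors, and no matches overlapped in these windows. TGACG was found before none of the 5 genes and TTGAC before PCR2 only, with its first base 214 bases upstream, against 18.6% and 44.9% of 27443 windows of the same length before protein-coding genes. The windows of the pair are shown because PCR1 and PCR2 are neighbours with unlike levels in controls. They are chr1:5133861-5134110 for PCR1 and chr1:5129732-5129981 for PCR2, minus strand, with the match in capitals. A match is a run of letters, and its absence says only that these letters are not in this window.
PCR1: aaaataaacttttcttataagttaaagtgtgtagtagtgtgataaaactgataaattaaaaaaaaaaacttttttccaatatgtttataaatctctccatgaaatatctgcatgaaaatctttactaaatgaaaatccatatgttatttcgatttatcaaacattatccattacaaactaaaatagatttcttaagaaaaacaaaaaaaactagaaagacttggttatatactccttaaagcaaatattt
PCR2: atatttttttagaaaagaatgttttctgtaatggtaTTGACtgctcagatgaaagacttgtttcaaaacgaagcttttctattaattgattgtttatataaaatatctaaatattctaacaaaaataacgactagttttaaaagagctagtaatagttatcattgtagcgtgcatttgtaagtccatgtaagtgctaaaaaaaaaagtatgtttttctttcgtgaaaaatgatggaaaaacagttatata

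The condition of no reads in 48 h controls held in one tissue or the other, and in both for 1 gene. PCR1 and LURP1 had 0 counts in each of the 3 root controls at 48 h, but 18, 18 and 59 counts (PCR1) and 89, 56 and 204 counts (LURP1) in the shoot controls. AT1G52130 had 0 counts in each shoot control and 4, 5 and 21 counts in the root controls. AT2G44240 had 0 counts in all 6. Of 4425 genes without a read in the root controls at 48 h, 11 averaged at least 5 CPM in SA root at 48 h, and of 4388 such genes in shoot, 10 did so in SA shoot. PCR1 was the first and LURP1 the third of these in root, between AT4G19750 with 233 CPM and AT5G45180 with 94.7 CPM. AT2G44240 was the first and AT1G52130 the second in shoot, ahead of AT5G52710 with 24.4 CPM.

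**Figure D1:**
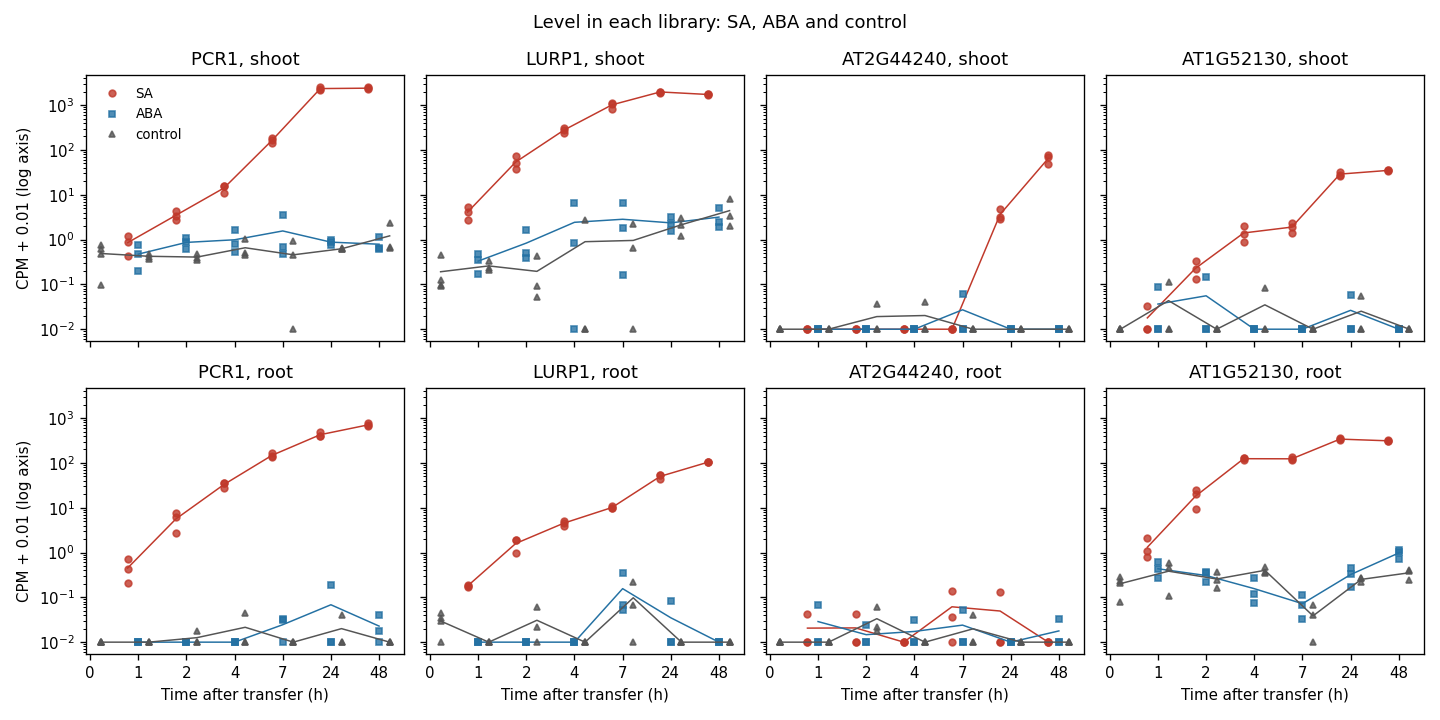
Level of PCR1, LURP1, AT2G44240 and AT1G52130 in each library (points) with the group mean (line), for shoot (upper row) and root (lower row), as CPM + 0.01 on a log axis. Times are spaced evenly on the horizontal axis. SA libraries lie above the control libraries from 1 or 2 h for PCR1, LURP1 and AT1G52130 and from 24 h for AT2G44240 in shoot, while the SA and ABA libraries of AT1G52130 in shoot still overlap at 2 h.

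The genes were proposed as switched on late by SA, but 4 of the 5 were first called above controls between 1 and 4 h. Onset was taken as the first time at which every SA library held more than 3 counts and SA was higher at an adjusted p under 0.05, at that time and at every later one up to 24 h. By this rule the onset was 1 h in root for PCR1, PCR2, LURP1 and AT1G52130, and in shoot 2 h for PCR1, LURP1 and AT1G52130 and 4 h for PCR2. AT2G44240 alone had an onset after 4 h, 24 h in shoot, and none in root. Onset in this sense is first detection, not a high level. PCR1 and AT1G52130 first reached 50% of their mean in 48 h SA libraries at 24 h in both tissues. LURP1 first did so at 7 h in shoot and at 48 h in root, and AT2G44240 at 48 h in shoot. The 1 h root onset of PCR1 and LURP1 became 2 h when more than 10 counts were required, and also in fits to the 6 libraries compared, where neither gene was tested at 1 h. In root, 4 of the 4 members that passed the filter on low counts were higher with SA at 1 h, where 22.7% of all tested genes were. The 4 stayed higher at 2, 4, 7 and 24 h, where the shares over all genes were 29.4%, 30.8%, 27.9% and 32.1%. PCR1 and LURP1 passed that filter through their SA libraries and AT2G44240 was dropped by it, so nothing is read from these root counts against the shares over all genes. In shoot, 0 of 5 were called at 1 h (0.578% of all genes), 3 at 2 h (5.31%), 4 both at 4 h (14%) and at 7 h (20%), and 5 at 24 h (29.3%). AT2G44240 and AT1G52130 held at most 1 and 4 counts in any ABA or control shoot and passed the shoot filter through their SA libraries. The shoot counts are therefore not read against the shares over all genes either. The adjusted p-values of single genes that passed a filter through SA libraries have the same limit. They and the onsets built on them are given as descriptions for PCR1 and LURP1 in root and for AT2G44240 and AT1G52130 in shoot. No member was lower with SA in any of these comparisons, but members with few or no reads in controls could hardly be.

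The levels themselves built up over hours. Each gene was set against its own mean in the 48 h SA libraries of that tissue. PCR1 stood at 0.0622% of that mean in SA root after 1 h, 4.65% after 4 h, 20.9% after 7 h and 60.2% after 24 h. In SA shoot it stood at 0.592% after 4 h, 6.89% after 7 h and 97.9% after 24 h. LURP1 reached 58.8% in SA shoot at 7 h but 9.69% in SA root, where it had 48.0% at 24 h. AT1G52130 held 39.9% and 39.7% in SA root at 4 and 7 h and 109% at 24 h. In SA shoot it was at 3.99%, 5.40% and 82.7% at these times. AT2G44240 was at 5.61% in SA shoot at 24 h. PCR2 was at 75.6% in SA shoot and 63.3% in SA root at 1 h, and the 1 h controls stood at 53.4% and 39.4% of the same means in shoot and root.

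Known SA targets give a scale for these times. NIMIN1, which encodes an NPR1-interacting protein, was at 66.8% of its own 48 h mean in SA root at 1 h and at 6.95% in SA shoot. WRKY70, a transcription factor gene of the SA response, was at 105% in SA root and 22.3% in SA shoot at 1 h. PR1, the usual marker of the late SA response, was at 1.13% and 3.42% in SA root at 4 and 7 h and at 81.0% at 24 h, and in SA shoot at 0.112%, 1.52% and 67.3%. By the onset rule used for the members, PR1 itself started at 4 h in both tissues (edgeR adjusted p = 1.08e-06 in root and 3.26e-08 in shoot). An early onset by this rule therefore does not exclude a late rise in level. At 7 h, PCR1, LURP1 and AT1G52130 were thus at a larger share of their 48 h mean than PR1 in both tissues and at a smaller share than NIMIN1 and WRKY70. At 24 h all 3 were still above PR1 in shoot. In root at 24 h PCR1 (60.2%) and LURP1 (48.0%) were below PR1 (81.0%), and AT1G52130 (109%) was above it. These shares are descriptions, since the 48 h SA libraries are part of how the members were chosen.

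**Figure D2:**
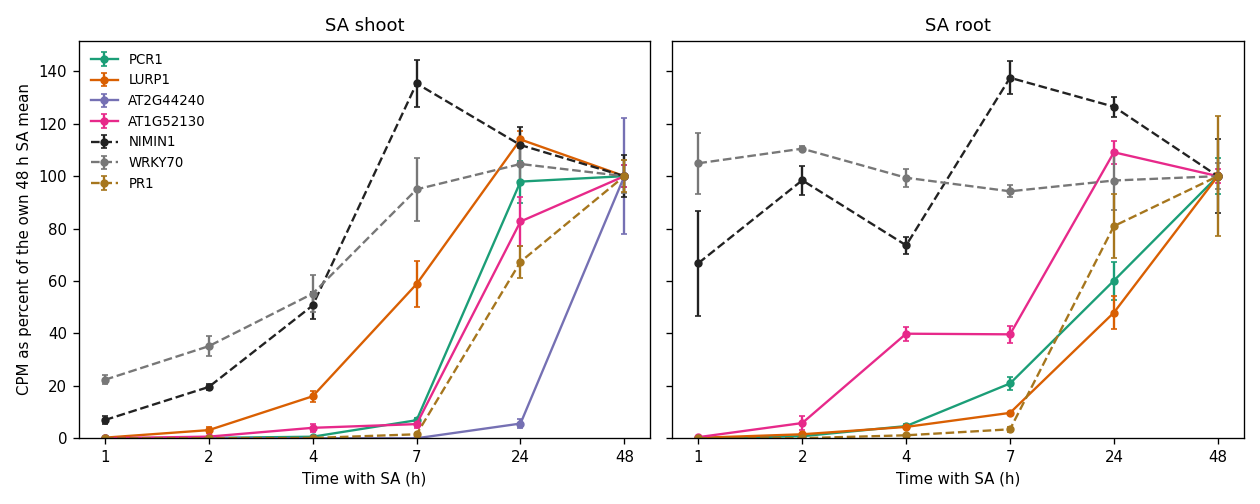
SA level as percent of each gene's own mean in the 48 h SA libraries, for shoot (left) and root (right), mean and SD of 3 libraries. Solid lines are members and dashed lines the known SA targets NIMIN1, WRKY70 and PR1. AT2G44240 is at 5.61% at 24 h in shoot, where PCR1 is at 97.9%.

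PCR1 was nearly without reads in roots that had not met SA. In SA root it had 9, 21 and 13 counts at 1 h, then 168, 69 and 239 at 2 h, then 1082, 1161 and 1546 at 4 h. It reached 3675, 6219 and 4358 counts by 7 h and 8293, 9931 and 20703 by 24 h. The 22 root control libraries of all times held between 0 and 2 counts, with reads in 3 of them, so no SA root library overlapped a control. The SA root mean was 0.441 ± 0.254 CPM at 1 h (SD, n = 3), at least 4.87-fold above the level that 3 counts per control library allow (adjusted p = 0.00128). At 24 h it was 426 ± 51.2 CPM in SA root, against 0, 0 and 2 counts in control root, which gave a ratio of pooled counts of 30599 (95% exact counting interval 8470 to 252677, adjusted p = 3.26e-24). Such intervals and limits cover counting error only, and reads are not counted as unique molecules.

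In shoot, PCR1 had a low level in controls. The 22 shoot control libraries held 0 to 59 PCR1 counts, with a median of 17 and reads in 21 of them. SA shoot held 18, 34 and 30 counts at 1 h, when the groups overlapped, and 480, 217 and 349 counts at 2 h, against 14, 22 and 7 in control shoot. On the CPM scale this was 3.46 ± 0.802 in SA shoot and 0.397 ± 0.0697 in control shoot at 2 h (SD, n = 3 each), and the log2 fold change was 3.02 with an SE of 0.43 (adjusted p = 1.97e-06). SA shoot was at 165 ± 20.4 CPM at 7 h and at 2344 ± 192 CPM at 24 h. At 24 h, control shoot had 0.613 ± 0.0318 CPM, and the log2 fold change was 12.02 with an SE of 0.47 (adjusted p = 3.16e-25). At 48 h, SA shoot was at 2394 ± 98.6 CPM.

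The SA libraries of shoot at 2 h carry another library-name prefix than the controls of that time, so a difference that follows the prefix cannot be told apart from SA there. This touches the 2 h onset of PCR1, LURP1 and AT1G52130. The ABA shoots of 2 h have the prefix of the controls, so the 2 h comparison of SA with ABA in shoot has the same limit. So does the 2 h test of the SA effect in shoot minus that in root. At 4 h, where the prefix does not separate the groups, all 3 were higher with SA as well. In root at 24 h, replicates 2 and 3 of SA differ in prefix from replicate 1 and the controls, and with replicate 1 as the only SA library, assumed to vary like the other groups, the same 4 members were called. In these bulk samples, more cells with a transcript and more transcript per cell cannot be told apart.

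PCR2 was present in every control and moved far less than its neighbour. In control root it ran between 270 and 442 CPM and in control shoot between 25.3 and 99.3 CPM, the lowest value from 2 counts in the shallow library. SA root at 1 h had 441, 466 and 516 CPM, against 274, 323 and 289 CPM in control root, without overlap. The log2 fold change was 0.66 with an SE of 0.11 (adjusted p = 1.21e-06), and at 2, 4, 7 and 24 h it was 0.99, 0.56, 0.75 and 0.93, each with an SE of 0.11. At 48 h SA root was at 749 ± 31.9 CPM and control root at 305 ± 7.01 CPM. The rise in SA root over control root lay between 1.48-fold and 1.99-fold from 1 to 24 h and was 2.37-fold at 48 h.

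In shoot, PCR2 at 2 h had 119, 113 and 106 CPM with SA and 79.1 to 90.2 CPM in the 3 controls, which did not overlap but gave an adjusted p of 0.323 (0.00854 in a fit to the 6 libraries alone). At 4 h the values were 137, 145 and 143 CPM with SA and 73.4, 95.3 and 77.3 CPM in controls, for a log2 fold change of 0.85 with an SE of 0.21 (adjusted p = 0.00246). This call was lost without replicate 2 (log2 fold change 0.95, adjusted p = 0.0518) or without replicate 3 (0.78, adjusted p = 0.0743), which moved the onset to 7 h. The highest SA shoot level was at 7 h, 199 ± 18.2 CPM, and at 24 h SA shoot had 128 ± 9.89 CPM and control shoot 53.8 ± 6.90 CPM (log2 fold change 1.37, SE 0.22, adjusted p = 5.08e-07). Control roots held 3818 to 36219 PCR2 counts and 0 to 2 PCR1 counts, so reads of PCR2 were not counted for PCR1 in any number despite the identity of the coding sequences. How reads that match both genes were treated is not given in the sources used here.

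**Figure D3:**
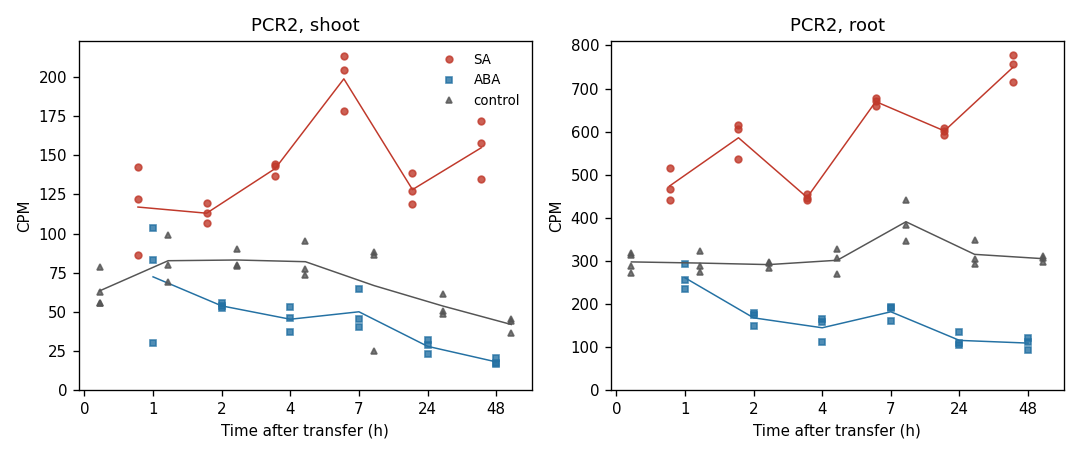
PCR2 in each library (points) with the group mean (line) on a linear CPM axis that starts at 0, for shoot (left) and root (right). SA libraries lie above the controls in root from 1 h, and ABA libraries below them from 2 h.

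LURP1 had the largest fold change of the members in shoot at 2 h among those with reads in every control. SA shoot held 6400, 3327 and 5947 counts at 2 h, against 3, 2 and 9 counts in control shoot. The means were 53.7 ± 18.8 CPM with SA and 0.185 ± 0.214 CPM in controls, which gave a log2 fold change of 8.53 with an SE of 0.97 (adjusted p = 9.75e-09). At 1 h SA shoot had 114, 207 and 103 counts and control shoot 5, 4 and 4, which did not overlap, but the adjusted p was 0.0926 in the fit to all shoot libraries and 0.0203 in a fit to the 6 libraries alone. Later, LURP1 in SA shoot was at 277 ± 35.2 CPM (4 h), 1017 ± 154 CPM (7 h), 1970.4 ± 56.0 CPM (24 h) and 1728 ± 6.34 CPM (48 h).

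The shoot controls of LURP1 were uneven. At 4 h they held 0, 0 and 87 counts, at 7 h 0, 6 and 58, and at 48 h 89, 56 and 204, with replicate 3 highest at each of these times. The lowest SA shoot library from 1 h on still lay above the highest control of its time. At 24 h SA shoot was at 1970.4 ± 56.0 CPM and control shoot at 2.13 ± 0.936 CPM, with a log2 fold change of 9.92 with an SE of 0.83 (adjusted p = 3.63e-14).

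In root, LURP1 was at a lower level. SA root held 8, 5 and 5 counts at 1 h and control root 0 in each library, at least 1.87-fold above 3 counts per library (adjusted p = 0.00425). SA root then held 61, 21 and 57 counts at 2 h and 156, 163 and 198 at 4 h. By 7 h it held 257, 399 and 311 counts, and by 24 h 882, 1326 and 2348. Of the 22 root controls, 1 held more than 3 LURP1 counts, with 7 counts at 7 h. At 24 h SA root had 42.7, 52.4 and 55.0 CPM and control root 0 counts in each library, at least 715-fold above 3 counts per library (adjusted p = 5.89e-22). At 48 h SA root had 104 ± 1.36 CPM. LURP1 is 87.5% identical to AT1G07623 over 518 bases, so the split of reads between the pair is uncertain there.

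AT2G44240 had the latest onset of the set. No SA shoot library held a read of it at 1, 2, 4 or 7 h, and 3 counts per library would correspond to a mean of 0.184 CPM at 7 h. At 24 h SA shoot held 107, 78 and 117 counts and control shoot 0 in each library. The SA mean was 3.64 ± 1.09 CPM, at least 29.7-fold above 3 counts per control library. The edgeR adjusted p was 3.49e-09, for a gene that passed the filter only through SA libraries. At 48 h the SA shoot libraries held 2128, 2706 and 538 counts, or 76.6, 69.3 and 48.8 CPM, with replicate 3 lowest, and the 48 h controls held none.

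Outside the late SA shoots, AT2G44240 was almost absent. The 18 ABA and 22 control shoot libraries held at most 1 count each, with reads in 1 ABA and 2 control libraries. In root it did not pass the filter on low counts and had no test. SA root held 0 to 4 counts at every time, the highest being 4 in replicate 3 at 7 h, and 0 in each library at 48 h, where 3 counts per library would correspond to a mean of 0.0867 CPM. ABA root held at most 3 counts and control root at most 1.

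AT1G52130, like PCR2, was lower in SA shoot than in SA root. In SA root it had 48, 23 and 65 counts at 1 h, 574, 222 and 763 at 2 h, and 4572, 4137 and 5590 at 4 h. Control root held 17, 18 and 3 counts at 1 h, so the lowest SA library was above the highest control. The means at 1 h were 1.30 ± 0.671 CPM with SA and 0.374 ± 0.250 CPM in controls, for a log2 fold change of 1.74 with an SE of 0.45 (adjusted p = 0.00128). Without replicate 3 the log2 fold change at 1 h was 0.89 (adjusted p = 0.155), and the onset in root became 2 h. At 2 h the values were 18.1 ± 7.94 CPM with SA and 0.247 ± 0.103 CPM in controls (log2 fold change 6.41, SE 0.30, adjusted p = 7.72e-23).

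The level of AT1G52130 in SA root was 124 ± 8.49 CPM at 4 h and 123 ± 9.84 CPM at 7 h. It was 339.7 ± 13.9 CPM at 24 h and 311 ± 8.29 CPM at 48 h. In shoot the level was lower and the onset later. SA shoot held 37, 21 and 10 counts at 2 h, against 0 in each control library, at least 2.26-fold above 3 counts per library (adjusted p = 0.00357). That call was lost without replicate 1 (adjusted p = 0.0503) or replicate 2 (adjusted p = 0.171), and the onset then became 4 h. The fitted log2 change was 5.70 and 5.44 in these fits and 5.73 with all replicates, values that depend on how the fit treats controls at 0. SA shoot stayed low at 4 h, with 1.39 ± 0.564 CPM and a ratio of pooled counts of 53.5 over control shoot (95% exact counting interval 17.8 to 264). At 7 h it had 1.89 ± 0.466 CPM (adjusted p = 2.22e-06), and no fold is given there because the controls held 0 counts and include the shallow library. It was 28.9 ± 3.27 CPM at 24 h, against 0.0152 ± 0.0264 CPM in control shoot, a ratio of pooled counts of 2247 (95% exact counting interval 403 to 88773, adjusted p = 6.05e-16).

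The tissues were compared directly in the fit to all libraries, as SA shoot minus SA root, with root and shoot libraries taken as independent. LURP1 was higher in SA shoot at 1, 2, 4, 7 and 24 h, by log2 differences of 4.55 (SE 0.84), 5.23 (SE 0.56), 5.94 (SE 0.52), 6.65 (SE 0.52) and 5.30 (SE 0.49), with adjusted p between 6.85e-19 and 1.76e-06. PCR2 and AT1G52130 were lower in SA shoot at each of these times. For PCR2 the difference lay between -2.37 and -1.66, and for AT1G52130 it was -6.06 (SE 0.27) at 7 h and -3.56 (SE 0.21) at 24 h. PCR1 changed order: it was lower in SA shoot at 4 h (14.2 ± 2.93 CPM in shoot, 33.0 ± 5.08 CPM in root, log2 difference -1.22, SE 0.26, adjusted p = 2.28e-05). At 7 h PCR1 gave 165 ± 20.4 CPM in SA shoot and 148 ± 16.4 CPM in SA root, which overlapped (adjusted p = 0.567). At 24 h it was higher in shoot, 2344 ± 192 CPM against 426 ± 51.2 CPM in root (log2 difference 2.46, SE 0.25, adjusted p = 4.13e-14). AT2G44240 was higher in SA shoot at 24 h, by a ratio of pooled counts of 104 (95% exact counting interval 35.3 to 508).

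By count, 1, 1, 1, 1 and 3 members were higher in SA shoot at 1, 2, 4, 7 and 24 h, where 40.9%, 42.3%, 38%, 38.9% and 37.4% of all 22322 genes were. Between 2 and 3 members were lower, where 36.4% to 38.6% of all genes were. The 2 h call for PCR1 (log2 difference -0.62, adjusted p = 0.0435) came from groups that overlapped and was lost without replicate 2 (adjusted p = 0.243) or replicate 3 (adjusted p = 0.346).

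Shoot tissue in root samples was measured through the 10 shoot markers. In SA root at 24 h their summed level was 0.0543% of that in SA shoot, and at 48 h 0.0854%, with none of the 10 at 0. At 24 h PCR1 in SA root was at 18.2% of its SA shoot level and LURP1 at 2.54%, and at 48 h they were at 29.6% and 6.04%. The part of shoot tissue in these root levels was not tested. The SA shoots themselves had less of these markers, with a summed level of 26770 to 28872 CPM at 24 h against 79102 to 80784 CPM in control shoot. The root markers were lower in SA shoots too, at 463 to 560 CPM with 1 of 10 (PLT2) at 0, against 2668 to 2915 CPM in control shoot. In SA root the root markers were lower as well, most of all at 7 h, with 604 to 665 CPM against 3085 to 3361 CPM in control root, and at 24 h with 1850 to 2339 CPM against 3786 to 4278 CPM. The part of these shifts in the results was not tested. Root tissue in shoot samples could not be measured in the same way, because the root markers did not separate the tissues cleanly. At 24 h AT1G52130 was at 28.9 CPM in SA shoot and 340 CPM in SA root, and PCR2 at 128 and 602 CPM. The part of root tissue in these shoot levels was not tested.

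To compare levels of different genes, they were expressed per kb of exon, with the exons of all annotated models of a gene merged. LURP1 had 2232 bases from 4 coding models, PCR1 had 938 bases from 1, and the model of AT1G52130 is partial. The order between genes is therefore approximate. In SA shoot at 24 h the order was PCR1 (2499 ± 205 CPM per kb), LURP1 (883 ± 25.1), PCR2 (117 ± 9.06), AT1G52130 (17.9 ± 2.03) and AT2G44240 (2.40 ± 0.715). In SA root at 24 h it was PCR2 (551 ± 7.55 CPM per kb), PCR1 (455 ± 54.6), AT1G52130 (211 ± 8.65), LURP1 (22.4 ± 2.91) and AT2G44240, near 0. At 48 h PCR1 and PCR2 in SA root were at 756 ± 52.9 and 686 ± 29.2 CPM per kb, with libraries that overlapped, while AT2G44240 in SA shoot stood at 42.7 ± 9.47 CPM per kb, above AT1G52130 at 21.7 ± 0.884 CPM per kb.

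**Figure D4:**
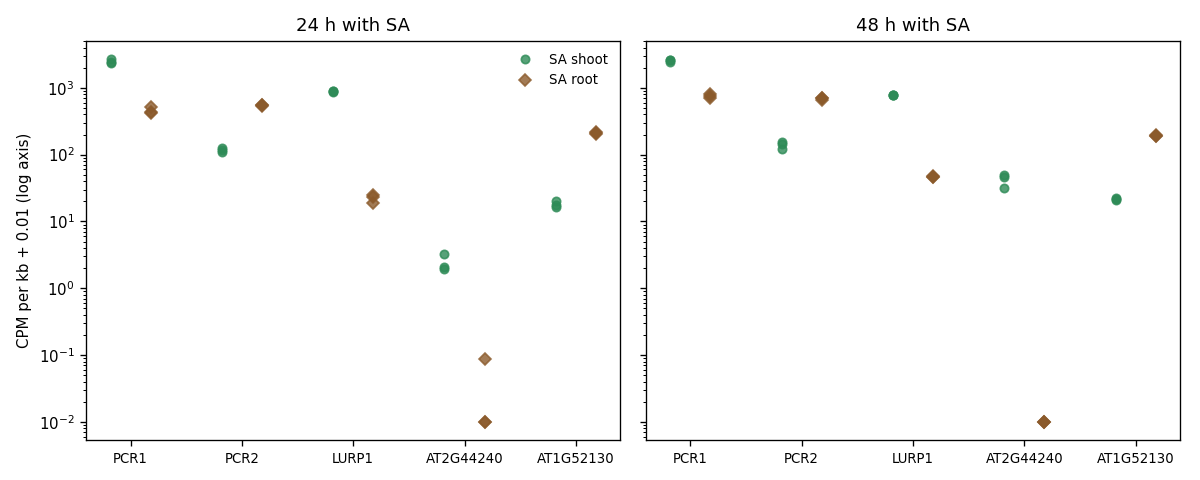
CPM per kb of exon + 0.01 (log axis) of the 5 genes in each SA library of shoot (circles, left) and root (diamonds, right) at 24 and 48 h. PCR1, LURP1 and AT2G44240 are higher in shoot, and PCR2 and AT1G52130 in root.

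Whether the response to SA, and not just the level, differed between tissues was tested as the SA effect in shoot minus the SA effect in root. PCR1 was the only member called, at 2, 4 and 7 h, where 1 of 5 members was lower and 13.8%, 15.9% and 12.5% of all genes were. At 1 and 24 h 0 members were lower, where 5.48% and 24.9% of genes were. The estimates were -6.36 (SE 1.17, adjusted p = 1.16e-05), -6.73 (SE 1.14, adjusted p = 2.80e-06) and -7.65 (SE 1.72, adjusted p = 0.000426) on the log2 scale. Control roots hold almost no PCR1 read and control shoots a few, so the size of this difference depends on how the fit treats counts near 0. PCR1 also met the rule of no reads in 48 h controls in root and not in shoot. Its choice thus favoured a larger SA effect in root, and the calls are given as a description. At 7 h the call was lost without replicate 3 (adjusted p = 0.0992). With a replicate block PCR1 was also called at 1 h (-5.95, adjusted p = 0.00471) and at 24 h (-2.67, adjusted p = 0.0127). For AT1G52130 and LURP1 no difference was detectable, with standard errors from 0.97 to 19.2 log2 units. AT2G44240 gave no usable estimate, since its root libraries hold almost no reads. For PCR2 the difference lay between -0.56 (SE 0.25) and 0.45 (SE 0.26), with adjusted p of at least 0.0719. At 2 h its adjusted p without replicate 1 was 0.00333.

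No member was called higher with ABA. In root and shoot from 1 to 24 h, 0 members were higher with ABA at an adjusted p under 0.05, where in root 20.9%, 26.4%, 25.8%, 24.7% and 21.1% of genes were at 1, 2, 4, 7 and 24 h, and in shoot 14.5%, 16.4%, 12.9%, 8.47% and 9.97%. In the 18 ABA root libraries PCR1 had 0 to 7 counts, with reads in 5, LURP1 0 to 15 counts, with reads in 4, and AT1G52130 1 to 148 counts. The 148 counts of AT1G52130 belong to replicate 2 at 48 h, and on the CPM scale ABA root at 48 h was at 0.968 ± 0.234 CPM, against 0.343 ± 0.0917 CPM in control root, with no overlap and no test at this time.

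In ABA shoot, PCR1 had 3 to 81 counts and LURP1 0 to 151. PCR1 at 2 h gave 0.855 ± 0.224 CPM with ABA and 0.397 ± 0.0697 CPM in controls, which did not overlap but gave an adjusted p of 0.127 (0.0228 in a fit to the 6 libraries alone). LURP1 at 2 h gave 0.825 ± 0.681 CPM with ABA and 0.185 ± 0.214 CPM in controls (adjusted p = 0.154). Without replicate 3, which had the highest LURP1 count of the 2 h controls, its adjusted p was 0.0157, and at 4 h 0.00033, against 0.537 with all replicates. At 7 h in root, LURP1 with ABA was called without replicate 1 (adjusted p = 0.0434, against 0.471 with it).

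PCR2 was the exception with a clear response to ABA, in the direction opposite to SA. ABA root at 1 h had 261 ± 29.5 CPM and control root 295 ± 25.3 CPM, which overlapped (adjusted p = 0.247, and 0.0228 without replicate 1). At 1 h 0 members were called lower, against 19.6% of genes in root and 10.9% in shoot. PCR1 and LURP1 in root and AT2G44240 and AT1G52130 in shoot had a median of 0 counts in controls and could hardly be lower. The counts of lower members are therefore not read against the shares over all genes. From 2 h PCR2 was lower, 1 of 4 tested members in root at 2, 4, 7 and 24 h, where 26.2%, 24.4%, 26.3% and 18.3% of genes were lower. At 24 h ABA root had 109, 104 and 134 CPM and control root 305, 292 and 348 CPM, for a log2 fold change of -1.43 with an SE of 0.11 (adjusted p = 2.00e-15). In ABA shoot PCR2 was lower at 2, 4, 7 and 24 h, 1 of 5 members, where 14%, 14.7%, 8.98% and 8.62% of genes were lower. At 24 h it was 28.0 ± 4.53 CPM in ABA shoot and 53.8 ± 6.90 CPM in control shoot (log2 fold change -0.93, SE 0.22, adjusted p = 0.00135).

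Single replicates decided the shoot calls of PCR2 with ABA at 2, 4 and 7 h, where the log2 fold changes were -0.60, -0.82 and -0.75. Without replicate 2 they were -0.60, -0.67 and -0.56 (adjusted p = 0.223, 0.167 and 0.456). Without replicate 3 they were -0.64 at 2 h (adjusted p = 0.127) and -0.94 at 7 h (adjusted p = 0.118). At 48 h, described only, ABA root was at 109 ± 14.3 CPM and control root at 305 ± 7.01 CPM, and ABA shoot at 18.1 ± 1.94 CPM and control shoot at 42.0 ± 4.61 CPM.

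SA and ABA libraries were also compared with each other, which shares no control. In root 4 of the 4 tested members, of which PCR1 and LURP1 passed the filter through SA libraries, were higher with SA at each time from 1 to 24 h, where 25.9%, 31.6%, 31.3%, 30.5% and 30.5% of genes were. None was lower, against 27.7%, 34.2%, 33.3%, 32.6% and 34.1% of genes. PCR1 and LURP1 had a median of 0 counts in ABA root, so they could hardly be lower with SA. In shoot 2, 3, 4, 4 and 5 of 5 were higher with SA at 1, 2, 4, 7 and 24 h, where 10.9%, 15.2%, 17.2%, 24.8% and 30.7% of genes were. None was lower there either, against 14.1%, 15.7%, 13.1%, 23.4% and 31.2% of genes. AT2G44240 and AT1G52130 passed the shoot filter through SA libraries and had a median of 0 counts in ABA shoot. Nothing is therefore read from these counts of members against the shares over all genes. LURP1 differed already at 1 h in shoot, with 4.09 ± 1.34 CPM with SA and 0.321 ± 0.155 CPM with ABA (log2 difference 3.65, SE 0.91, adjusted p = 0.00212). PCR2 was the second gene at 1 h, at 117 ± 28.4 CPM with SA and 72.4 ± 37.8 CPM with ABA, which overlapped (adjusted p = 0.0210, and 0.155 without replicate 3). AT1G52130 at 2 h in shoot missed the threshold (adjusted p = 0.0505, and 0.0300 with DESeq2).

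The wider SA pathway was followed through a list of 26 genes for perception, signalling and output, all of which were tested. With SA, 14 rose and 3 fell in root at 1 h, 20 rose and 1 fell at 4 h, and 20 rose and 2 fell at 24 h. In shoot 9 rose and 0 fell at 1 h, 21 rose and 0 fell at 4 h, and 24 rose and 1 fell at 24 h. Over all tested genes in root, 22.7% rose and 22.5% fell at 1 h, 30.8% rose and 30.8% fell at 4 h, and 32.1% rose and 32.9% fell at 24 h. In shoot the shares were 0.578% and 0.277% at 1 h, 14% and 8.83% at 4 h, and 29.3% and 30.4% at 24 h. At 24 h the list's median log2 fold change was 2.98 in shoot and 1.28 in root, beside -0.01 over all tested genes in each tissue. NIMIN1 in SA root at 1 h had 70.8 ± 21.2 CPM, against 0.338 ± 0.0170 CPM in control root, and in SA shoot 10.9 ± 2.64 CPM against 0.673 CPM in control shoot. With ABA in root, 1 gene of the list was higher and 13 lower at 1 h, where 20.9% of all tested genes were higher and 19.6% lower. At 24 h 5 were higher and 12 lower, beside 21.1% and 18.3% of all genes.

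Over the 38 group means of both tissues, the members were set against 18957 genes by Pearson's correlation of log2(CPM + 1), as a description. The groups share their controls and the tissue difference, and no test was made. The closest genes to PCR1 were RLP38 (r = 0.970), a receptor-like protein gene, SBT3.3 (r = 0.956), a subtilase gene linked to immune priming, and AT4G13820 (r = 0.954). The closest to LURP1 were AT1G74440 (r = 0.969), AT2G32160 (r = 0.957) and RDR1 (r = 0.957), an RNA-dependent RNA polymerase gene. AT2G44240 was closest to AT5G63225 (r = 0.991), BGLU31 (r = 0.964) and AT1G43810 (r = 0.952), and AT1G52130 to AT1G15610 (r = 0.991), AT5G40000 (r = 0.991) and AT5G52710 (r = 0.985). For PCR2 they were AT1G02360 (r = 0.959), DJ1A (r = 0.958) and PPI2 (r = 0.957). AT1G15610 and AT5G52710 were also among the genes without a read in 48 h control shoots. Among the members PCR1 and LURP1 were the most alike (r = 0.895), then PCR1 and AT1G52130 (r = 0.847), while PCR1 and its paralog PCR2 had an r of 0.328.

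The families of the members moved in both directions with SA. Of 18 other LURP-one-like genes, 13 were tested in root, where 5 rose and 4 fell with SA at 24 h, and 15 in shoot, where 5 rose and 3 fell. The tested share over all genes at 24 h was 32.1% higher and 32.9% lower in root, and 29.3% higher and 30.4% lower in shoot. AT1G33840, which matches LURP1 over stretches of up to 284 bases, was at 13.9 ± 0.403 CPM in SA root and 0.369 CPM in control root at 24 h. AT1G80120 was at 5.68 ± 0.267 CPM in SA root and 15.6 CPM in control root, but was higher with SA in shoot, at 8.10 ± 0.612 CPM against 3.58 CPM. Of 21 other PLAC8 genes, 16 were tested in each tissue, of which 9 rose and 1 fell in root and 8 rose and 2 fell in shoot at 24 h. AT5G35525, which is 83.7% identical to PCR1 over 294 bases, was at 31.5 ± 8.36 CPM in SA root and 4.65 CPM in control root, and AT4G23470 at 335 ± 22.6 CPM in SA shoot and 84.5 CPM in control shoot.

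Most tested relatives of AT2G44240 fell with SA. Of 44 other genes, 12 were tested in each tissue, and with SA at 24 h 1 rose and 10 fell in root and 1 rose and 9 fell in shoot. Their median log2 fold change was -0.76 in root and -1.09 in shoot, beside -0.01 over all genes in each. AT1G55360 was at 41.5 ± 0.959 CPM in SA shoot and 222 CPM in control shoot, and AT1G23340 at 2.23 ± 0.495 CPM in SA root and 6.92 CPM in control root. Of 41 other jacalin lectin genes, 31 were tested in root, with 12 higher and 10 lower at 24 h, and 32 in shoot, with 11 higher and 15 lower. AT1G60110 was at 37.8 ± 0.398 CPM in SA root and 1.55 CPM in control root.

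AT1G52120, the jacalin gene next to AT1G52130, was higher with SA in both tissues at 24 h and built up more slowly in root. At 24 h it was at 308 ± 9.10 CPM in SA root and 0.514 CPM in control root, and at 29.0 ± 1.47 CPM in SA shoot and 0.0347 CPM in control shoot. In SA root at 4 h AT1G52120 was at 3.78% of its 48 h mean and AT1G52130 at 39.9% of its own, and at 24 h they were at 71.7% and 109%. The longest similar stretch between the pair was 135 bases at 80% identity, by BLAST of the exons of AT1G52130 against the genome, which kept matches of at least 100 bases and 80% identity.

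Of the 16 annotated protein-coding genes within 2 places of a member that are not members, 13 were tested in each tissue. At 24 h with SA, 7 rose and 2 fell in root, where 32.1% of all tested genes rose and 32.9% fell. In shoot 6 rose and 3 fell, beside 29.3% and 30.4% of all genes. LURP1 has PRB1 as its next neighbour downstream and PR1 after it. PR1 was at 9446 ± 871 CPM in SA shoot and 0.388 CPM in control shoot at 24 h, and PRB1 at 23.7 ± 1.83 CPM in SA shoot and 3.04 CPM in control shoot. Beyond PCR1, AT1G14890 was at 14.5 ± 1.05 CPM in SA root and 1.97 CPM in control root. HMGA, after it, was lower with SA (log2 fold change -0.36 in root and -0.39 in shoot). NUDT18, next to PCR2, was higher (0.58 in root and 0.92 in shoot). TBL13, near LURP1, was lower in root (-0.32). Next to AT2G44240, AT2G44230 was at 16.5 ± 2.07 CPM in SA shoot and 44.8 CPM in control shoot. In root AT2G44230 went the other way, with 31.4 ± 1.70 CPM with SA and 13.8 CPM in controls.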

How the data were processed

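RNA-seq libraries of 116 root and shoot samples were counted per gene by the authors, and the deposited values are raw counts, with no normalization, for 27655 Araport11 identifiers, of which 27445 matched RefSeq. Per the submitters' processing notes, HISAT2 and featureCounts were used with TAIR10, and the strand setting and the handling of reads with several matches are not given in the sources used here. Library kits were stranded and poly(A)-selected, per the labels' protocols. Each tissue was fitted on its own in edgeR 4.0.16 (R 4.3.3) with TMM factors and filterByExpr, which left 21367 genes in root and 21263 in shoot, and a further fit of both tissues used 22322 genes. Quasi-likelihood p-values were Benjamini-Hochberg adjusted over all tested genes with a threshold of 0.05. Folds against groups with 0 counts use a limit of 3 counts per library, and those against 1 to 3 counts are ratios with exact 95% intervals.

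The members and gene lists were chosen with earlier results of these data known. Most genes named beside the members come from fixed lists: the 3 most correlated genes per member, at most 2 called relatives per family, neighbours called at 24 h, and NIMIN1, WRKY70 and PR1. Not every called neighbour is named. On simulated counts for SA against control root at 4 h, 198 of 199 changed genes were recovered at 4-fold among 20870 genes, with 12 others called. Each simulated gene had its mean over all root libraries. Large rises from almost no reads in controls, as for PCR1 and LURP1 in root, were not simulated. The design text calls the samples biological replicates. No library pair had identical counts. Replicate numbers were not taken as pairs, since the labels give them no shared source and not every same-numbered pair correlated over 0.1. Alternatives included DESeq2 1.42.0, no filter on low counts, median-of-ratios size factors and leaving out each replicate.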

Additional observations from a re-analysis of the deposited data

Results flagged for a closer look

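LURP1 had 1 library apart in the shoot controls at 0 h, at 0.438 CPM, while the other 3 lay between 0.0828 and 0.116 CPM. All 4 are low beside the SA shoots. Chance alone puts about 1 in 20 groups of this size in that class.

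For PCR1 the fitted SA effect in shoot minus that in root was -6.36 at 2 h, -6.73 at 4 h and -7.65 at 7 h on the log2 scale. Control roots held 0 to 2 PCR1 counts, so these sizes depend on how the fit treats counts near 0. PCR1 was chosen for having no reads in root controls at 48 h, which favours a larger effect in root. In SA plants themselves the level at 4 h was 14.2 ± 2.93 CPM in shoot and 33.0 ± 5.08 CPM in root.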

How the results depend on the processing

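Over the alternatives, 1341 of 1375 fold changes of single members kept their direction and side of the threshold, 18 passed it newly, 16 lost it and 0 reversed. With DESeq2, 2 members were lower with ABA in root at 4 h, against 1. With only the 6 libraries compared, 2 were lower with ABA in root at 4 h and 1 was higher in shoot at 2 h. In the same fit SA was higher at 1 h for 2 members in root and 1 in shoot against control, and for 2 in root and 1 in shoot against ABA, and onsets were 2 h for PCR1 and LURP1 in root and, in shoot, 2 h for PCR2, 1 h for LURP1 and 4 h for AT1G52130. Asking for more than 10 counts moved the onset to 2 h for PCR1 and LURP1 in root and to 4 h for AT1G52130 in shoot.

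The replicate numbers gave a correlation over 0.1 in 26 of 54 same-numbered pairs in root and 41 of 45 in shoot. With a replicate block, 1 member, PCR1, had a smaller SA effect in shoot than in root both at 1 h and at 24 h, against 0 at each, and 2 were higher in SA shoot than in SA root at 1 h, against 1, the added one being PCR1 (log2 difference 0.92, adjusted p = 0.0204). When one replicate was left out, members lower with ABA numbered 0 to 1 in root at 1 h and in shoot at 2, 4 and 7 h, and members higher with ABA 0 to 1 in root at 7 h and in shoot at 2 and 4 h. SA was above ABA for 1 to 2 members in shoot at 1 h, and the SA effect was smaller in shoot for 1 to 2 members at 2 h and 0 to 1 at 7 h. Onset ranged from 1 to 2 h for AT1G52130 in root, and in shoot from 4 to 7 h for PCR2 and from 2 to 4 h for AT1G52130. The causes were not tested. Depth limits the genes near 0: in control roots a PCR1 or LURP1 level under 3 counts per library cannot be told from none.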
